A study of Mus musculus with 18 samples.

Results

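The Polycomb repressive complex 1 (PRC1) genes *Ring1*, *Rnf2*, *Pcgf1*, *Bmi1*, *Pcgf3*, *Pcgf5*, *Pcgf6*, *Cbx2*, *Cbx7* and *Rybp* were followed in mice that lack repeat B of the long noncoding RNA *Xist*. They were chosen by symbol. All 10 were found among the 21959 genes listed for mouse embryonic fibroblasts (MEFs) and among the 51826 genes listed for liver, and all 10 were tested in both tissues. Polyadenylated RNA of primary MEFs and of liver was sequenced, with 3 libraries for each genotype of each tissue. The study describes RepB-/- mice as homozygous for a deletion of *Xist* repeat B, which the study made by injecting Cas9 mRNA and a pair of guide RNAs into zygotes, and WT mice carry the intact gene. The letters B and W of the library labels were read as RepB-/- and WT. The labels give no age, sex, litter or strain, and they name tail as the source of the cells they also call primary MEFs. They do not say which libraries came from separate animals, so p-values measure the spread between these libraries. The brain libraries of the series were not analysed here.

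PRC1 places ubiquitin on a lysine of histone H2A (H2AK119ub), a mark of gene silencing. Every PRC1 holds RING1 (from *Ring1*) or RING1B (from *Rnf2*), bound to one PCGF protein. Canonical complexes, built on BMI1 or PCGF2, hold a CBX protein that reads H3K27me3, the mark set by the partner complex PRC2, whereas variant complexes hold RYBP or its paralogue YAF2 in place of the CBX protein. On the inactive X chromosome, repeat B binds HNRNPK, which in turn brings in variant complexes with PCGF3 or PCGF5, and H2AK119ub laid down there helps to attract PRC2. The comparison therefore asked whether the genes of these complexes are themselves expressed at other levels when repeat B is missing, and whether the genes of canonical and PCGF3 or PCGF5 complexes differ in this.

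The exact ends of the deletion were not checked here, and repeat B is shown because complexes with PCGF3 or PCGF5 are recruited through it. It is read along the spliced *Xist* transcript of 17946 bases (GENCODE M21, GRCm38), with positions counted from 1 at its 5′ end and with each GCCCC in capitals.
guide 1, matching bases 2671 to 2690: gttgatgctatattgactaa
guide 2, matching the opposite strand of bases 3055 to 3074: gggataggtctgaaagtatc
repeat B run, bases 2860 to 2996: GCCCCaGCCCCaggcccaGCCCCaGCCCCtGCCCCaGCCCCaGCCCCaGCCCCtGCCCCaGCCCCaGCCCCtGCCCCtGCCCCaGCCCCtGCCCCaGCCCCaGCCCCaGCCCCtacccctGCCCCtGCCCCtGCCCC
The guides and the run lie in exon 1 of *Xist*, a noncoding gene on the minus strand, at chrX:103480565-103480584, chrX:103480181-103480200 and chrX:103480259-103480395 of GRCm38. The run of 137 bases lies between the guides and holds 21 copies of GCCCC. It was picked as the chain with the most GCCCC between the guides, with starts at most 12 bases apart. Its high shares of GCCCC and cytosine therefore follow in part from how it was picked. The whole transcript holds 30 copies in this orientation, so 70.0% of them lie in 0.763% of its length, and copies cannot overlap each other. Cytosine makes up 66.4% of the run and 21.6% of the transcript. Of the 17810 windows of the same length along the transcript, 7.0% hold at least 1 GCCCC and 0.882% hold at least 10. On the opposite strand the transcript holds 13 copies.

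Depth was 20005541 to 20587556 counts in the RepB-/- MEF libraries and 11540344 to 16347806 in the WT MEF libraries, and 43284198 to 51542709 and 37682201 to 46343577 in the RepB-/- and WT livers. The deeper RepB-/- MEF libraries had a count in fewer genes (15453 to 15545) than the WT MEF libraries (17191 to 17664), and the part of this in the MEF values was not tested. The MEF table used here has no *Xist* row, so the targeted gene could not be checked there. Y-linked *Ddx3y*, *Eif2s3y*, *Kdm5d* and *Uty* each had 0 to 3 counts in every MEF library. In liver, 5 of the 6 libraries had 290 to 662 *Xist* CPM (counts scaled by TMM-normalized library size), and such counts do not tell the deleted transcript from the intact one. RepB-/- liver replicate 2 had 4 *Xist* counts in all and 1527 counts of Y-linked *Ddx3y*, which had 0 in the other libraries. These counts go against a female homozygous for the deletion, and the library labelled RepB-/- liver replicate 2 was kept under its label. Replicate 1 of both liver genotypes stood apart as well, with 5970 and 4750 CPM summed over 5 fetal liver markers against 4.5 to 20.2 CPM in the others, and with 289 and 283 CPM over 8 genes of cycling cells against 32.2 to 98.1. In MEFs, WT replicate 1 was the shallowest library and held the highest value of 68.3% of the 2621 genes called lower in RepB-/- cells and the lowest value of 67.5% of the 2581 called higher. Fibroblast markers were high in MEFs (20400 to 35100 CPM over 8 genes) and hepatocyte markers reached at most 2.17 CPM there, against 113000 to 200000 CPM in liver. In bulk samples, fewer cells of a type and less RNA per cell cannot be told apart.

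*Rybp* was lower in RepB-/- MEFs, at 0.426 of its WT level, while *Pcgf3* and *Pcgf5*, the PCGF subunits it works with at *Xist*, were not called. Among the 10 members, 2 were called lower (*Rnf2* and *Rybp*) and 0 higher, where a call is an adjusted p under 0.05 in edgeR's quasi-likelihood test, with p-values adjusted by Benjamini-Hochberg across all 13306 genes tested. In the same comparison 39.1% of all genes were called, 19.7% lower and 19.4% higher, so the share of members called was below that of all genes. Their median log2 fold change was -0.21, against 0.00 (0.000299) for all genes. By CPM, libraries of the genotypes did not overlap for 5 members, of which 4 were lower and 1 higher in RepB-/- cells, against 52.2% of all genes (25.8% lower and 26.4% higher). RepB-/- MEFs also had more RNA of cycling cells (395 to 411 CPM over the 8 genes against 241 to 262, with 8 of 8 called higher) and of fibroblast markers (29300 to 35100 against 20400 to 25200, with 4 of 8 called higher and 1 lower). They had less of endothelial markers (11.1 to 12.7 CPM over 4 genes against 24.1 to 28.4, with 3 of the 3 tested called lower). Skeletal muscle markers were lower in sum (58.1 to 65.0 against 122 to 191, with 1 of 4 called lower). That sum followed *Acta1* (37.0 to 48.0 CPM against 105 to 172). *Myog* was instead higher in every RepB-/- library (4.56 to 5.35 against 4.02 to 4.49), and *Myod1* and *Des* overlapped, so the markers did not move together. No endothelial marker was at 0 in any MEF library. Keratinocyte markers were higher in sum (5.63 to 11.1 CPM over 4 genes against 4.09 to 5.46, with 1 of 4 called higher). The part of these shifts in the PRC1 values was not tested.

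**Figure D1:**
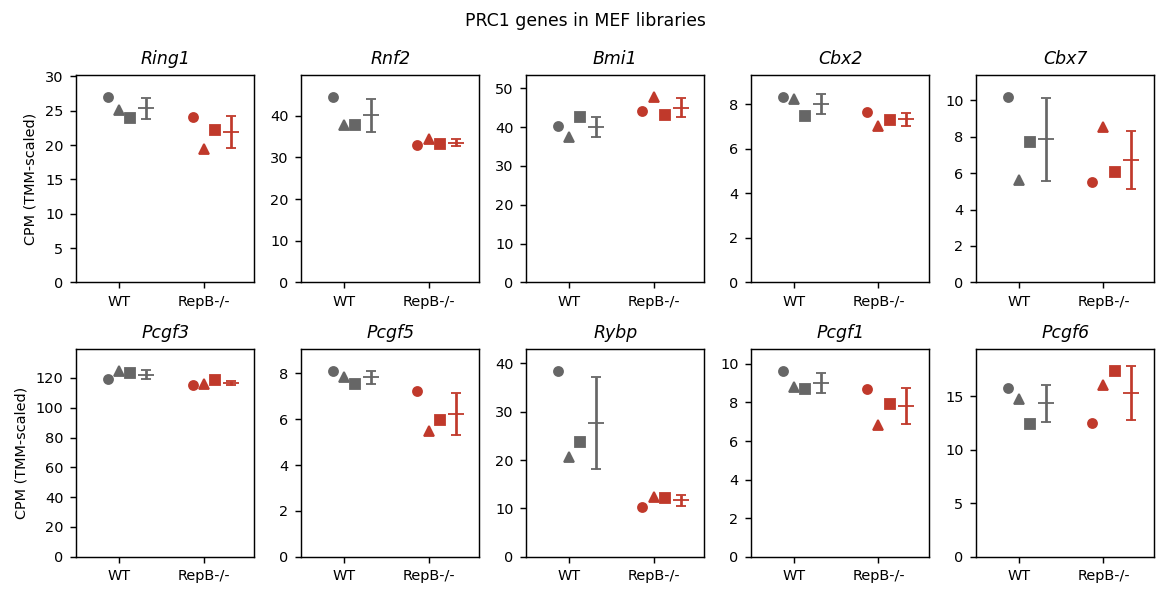
CPM of the 10 PRC1 genes in each MEF library, with WT in grey and RepB-/- in red; circles, triangles and squares are replicates 1, 2 and 3, and bars give the mean ± SD (n = 3). *Rybp* is at 10.35 to 12.45 CPM in RepB-/- cells and at 20.6 to 38.4 in WT cells, and the genotypes lie close together in most other panels.

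Of the catalytic subunits, *Rnf2* was called lower in RepB-/- MEFs by a small amount and *Ring1* was not called. *Rnf2*, which encodes the main ubiquitin ligase of the complex in most cells, had 32.9, 34.4 and 33.3 CPM in RepB-/- replicates 1 to 3 and 44.5, 37.8 and 37.8 CPM in WT. All RepB-/- values were under all WT values, and the log2 fold change was -0.25 ± 0.089 (SE, n = 3 per genotype, adjusted p = 0.037 in edgeR's quasi-likelihood test). Without WT replicate 1, the highest library, the log2 fold change was -0.17 and the call was lost (adjusted p = 0.102). It was also lost without any one of the RepB-/- libraries (adjusted p 0.0837 to 0.115), so only leaving out WT replicate 2 or 3 kept it. *Trmt1l*, which overlaps *Rnf2* on the opposite strand, was at 38.1 CPM in RepB-/- and 41.8 in WT (log2 -0.14, adjusted p = 0.202), and whether reads were assigned by strand is not given in the sources used here. *Ring1*, the other ligase gene, had 24.1, 19.4 and 22.2 CPM in RepB-/- and 27.0, 25.1 and 23.9 CPM in WT. By CPM the ranges of *Ring1* overlapped at 1 library of each genotype. By FPKM (fragments scaled by gene length and sequencing depth) they did not, at 5.8 to 7.1 in RepB-/- and 7.58 to 9.0 in WT. The log2 fold change of *Ring1* was -0.21 (95% interval -0.43 to 0.02) and it was not called (adjusted p = 0.137 in edgeR's quasi-likelihood test). Within each library, the log2 ratio of *Rnf2* to *Ring1* counts was 0.62 ± 0.19 (SD, n = 3) in RepB-/- and 0.66 ± 0.063 in WT cells, so the balance of the ligases differed by less than the spread between replicates.

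Of the 3 canonical members, 0 were called in MEFs, against 39.1% of all genes, and their median log2 fold change was -0.13. *Bmi1*, a PCGF protein of canonical complexes known for holding the *Cdkn2a* locus silent, had 44.0, 47.8 and 43.1 CPM in RepB-/- and 40.2, 37.5 and 42.6 CPM in WT. Each RepB-/- value was above each WT value, which made it the one member with that order, at a log2 fold change of 0.16 (95% interval crossing 0, adjusted p = 0.139). The nearest libraries of the genotypes were close, at 43.08 and 42.65 CPM. *Cbx2* and *Cbx7* encode chromodomain proteins. *Cbx2* had 7.64, 7.03 and 7.3 CPM in RepB-/- and 8.34, 8.22 and 7.49 CPM in WT (log2 -0.13, adjusted p = 0.518). *Cbx7* had 5.5, 8.52 and 6.08 CPM in RepB-/- and 10.2, 5.63 and 7.72 CPM in WT (log2 -0.21, adjusted p = 0.474). By CPM both genes overlapped between the genotypes, and the difference of *Cbx7* was 0.00 (0.0038) on the log2 scale without WT replicate 1. By FPKM *Cbx2* did not overlap (1.6 to 1.72 in RepB-/- and 1.81 to 2.12 in WT). *Apobec3*, on the opposite strand to *Cbx7*, was called lower at 4.01 CPM against 8.24 (log2 -1.04, adjusted p = 0.00348).

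Of the 3 members of PCGF3 or PCGF5 complexes, 1 was called lower and none was called higher, against 19.7% and 19.4% of all genes. Their median log2 fold change was -0.33. The member called, *Rybp*, is shared with the other variant complexes. With 3 genes in each list, the counts called do not tell the canonical members from these. All 3 had every RepB-/- library under every WT library, as did 25.8% of all genes. *Pcgf3*, which encodes the scaffold of the complex most directly tied to *Xist*, had 115, 116 and 118 CPM in RepB-/- and 119.3, 125 and 123 CPM in WT. The gap between the nearest libraries was under 1 CPM, and the log2 fold change was -0.07 with a 95% interval of -0.21 to 0.07 (adjusted p = 0.425). *Pcgf5*, its close paralogue, had 7.24, 5.48 and 5.98 CPM in RepB-/- and 8.1, 7.85 and 7.54 CPM in WT. Its log2 fold change of -0.33 ± 0.16 (SE) was not called (adjusted p = 0.131).

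*Rybp* encodes the RING1-binding subunit that variant complexes use in place of a CBX protein and that also binds H2AK119ub. It had 203, 241 and 240 counts in RepB-/- MEFs and 479, 333 and 400 counts in WT MEFs, although the RepB-/- libraries were the deeper ones. After scaling this was 10.35, 12.45 and 12.2 CPM against 38.4, 20.6 and 23.8 CPM. The highest RepB-/- library lay well under the lowest WT library, and WT replicate 1 lay far above the other WT libraries. The log2 fold change was -1.23 ± 0.19 (SE, 95% interval -1.64 to -0.83, adjusted p = 0.000245). Without WT replicate 1 it was -0.93, still called (adjusted p = 7.15e-06), and it was called without each of the other libraries and under each other setting tried. *Yaf2*, the paralogue that can take the place of *Rybp*, had 34.6, 33.9 and 39.1 CPM in RepB-/- and 46.9, 39.3 and 39.5 CPM in WT, and its log2 fold change of -0.22 was not called (adjusted p = 0.0821). Within each library the log2 ratio of *Rybp* to *Yaf2* counts was -1.62 ± 0.15 (SD, n = 3) in RepB-/- cells and -0.65 ± 0.33 in WT cells, with no overlap. The log2 ratio of *Rybp* to *Pcgf3* was -3.33 ± 0.13 against -2.2 ± 0.5, again with no overlap, whereas that of *Pcgf5* to *Pcgf3* overlapped. These ratios do not depend on how libraries are scaled to each other. Those that separated contain *Rybp*, whose own libraries did not overlap, so they are not separate evidence. The share of gene pairs whose ratios separate was not counted. *Rybp* lies on chromosome 6 (GRCm39 chr6:100205526-100264446, minus strand), and no other gene listed for MEFs overlaps it.

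**Figure D2:**
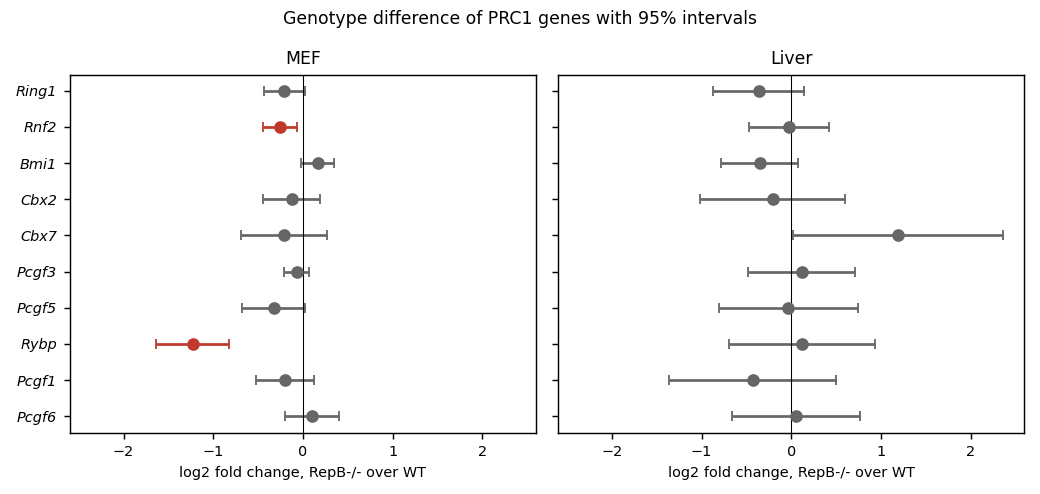
Log2 fold change of each PRC1 gene, RepB-/- over WT, in MEFs (left) and liver (right); points are edgeR estimates from 3 libraries per genotype, lines their 95% intervals, and red marks an adjusted p under 0.05. *Rybp* in MEFs (-1.23) and *Cbx7* in liver (1.19) lie farthest from 0, and only the MEF values of *Rybp* and *Rnf2* are called.

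**Figure D3:**
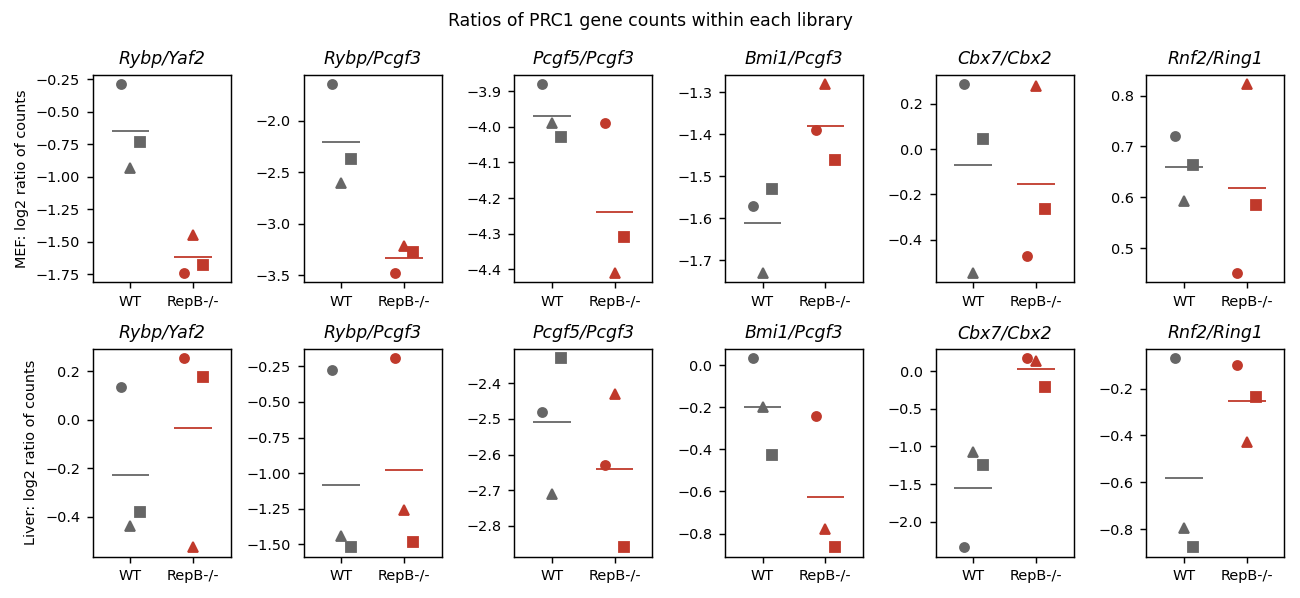
Log2 ratio of the counts of 2 PRC1 genes within each library, in MEFs (top) and liver (bottom), with WT in grey, RepB-/- in red, circles, triangles and squares for replicates 1, 2 and 3 and lines for the means; each panel has its own axis. Among the ratios plotted, the genotypes separate for *Rybp*/*Yaf2*, *Rybp*/*Pcgf3* and *Bmi1*/*Pcgf3* in MEFs and for *Cbx7*/*Cbx2* in liver. The share of all gene pairs that separate in this way was not counted.

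The members of the remaining variant complexes were not called. *Pcgf1* is the PCGF subunit of the complex that the CpG-binding protein KDM2B brings to CpG islands. It had 8.71, 6.82 and 7.91 CPM in RepB-/- and 9.62, 8.78 and 8.67 CPM in WT MEFs (log2 -0.20, adjusted p = 0.302). *Pcgf6*, from a complex with MAX, MGA and E2F6, had 12.5, 16.0 and 17.3 CPM in RepB-/- and 15.8, 14.7 and 12.4 CPM in WT (log2 0.10, adjusted p = 0.609). Both genes overlapped between the genotypes by CPM. By FPKM *Pcgf1* did not (4.0 to 5.06 in RepB-/- and 5.36 to 6.31 in WT).

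Levels of different genes were compared per length, by FPKM. In WT MEFs *Pcgf3* had the highest level at 13.3 ± 0.18 FPKM (SD, n = 3), followed by *Bmi1* at 10.5, *Rnf2* at 10.1, *Ring1* at 8.12, *Rybp* at 6.1 and *Pcgf1* at 5.69. *Pcgf6* (2.96), *Cbx2* (1.96), *Cbx7* (1.27) and *Pcgf5* (0.645 ± 0.042) were lowest, each with all its libraries under those of the gene before it. Neighbours that overlapped were *Bmi1* and *Rnf2*, *Ring1* and *Rybp*, and *Rybp* and *Pcgf1*. In RepB-/- MEFs *Rybp* stood at 2.36 ± 0.24 FPKM, below *Pcgf1* and overlapping *Pcgf6*, and the other 9 genes kept their order. *Pcgf5* has the longest gene model of the members in the MEF table (12629 bases against 9544 for *Pcgf3*), and its level per length depends on that model.

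The rest of the PRC1 system was read from 45 further genes, of which 7 were called higher and 10 lower in RepB-/- MEFs, at a median log2 fold change of -0.06. That is 17 of 45 against 39.1% of all genes. Among 18 other subunits of variant complexes, 4 were higher (*Skp1*, *E2f6*, *Tfdp1*, *Dcaf7*) and 6 lower (*Bcor*, *Auts2*, *Fbrs*, *Fbrsl1*, *Csnk2a2*, *Csnk2b*). Among 8 other canonical subunits, 0 were higher and 1 lower (*Phc2*). Among 13 genes of the H2AK119 deubiquitinases, which take the mark off, 2 were higher (*Foxk2*, *Ogt*) and 2 lower (*Asxl3*, *Mbd6*). Of 4 genes that act with *Xist* in recruitment or silencing, only *Rbm15* was called, lower, while *Hnrnpk*, which joins repeat B to PRC1, was not. Of the textbook targets of PRC1, *Cdkn2b* was higher and *Cdkn2a* not called.

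*Auts2*, *Fbrs* and *Fbrsl1*, all called lower, encode related accessory subunits of PCGF3 or PCGF5 complexes. The casein kinase 2 genes of those complexes differed in direction. *Csnk2a2* (log2 -0.46) and *Csnk2b* (-0.27) were called lower, while *Csnk2a1*, which encodes the other catalytic subunit, had every RepB-/- library above every WT library and was not called (log2 0.11, adjusted p = 0.209). *Dcaf7*, another partner of these complexes, was called higher (log2 0.20, adjusted p = 0.041). In all genes tested, 19.7% were called lower and 19.4% higher. *Auts2* had 7.7, 9.61 and 8.97 CPM in RepB-/- and 17.3, 11.4 and 13.01 CPM in WT (log2 -0.66, adjusted p = 0.00618). *Fbrsl1* had 25.1, 25.9 and 24.1 CPM in RepB-/- and 50.4, 31.9 and 34.6 CPM in WT (log2 -0.63, adjusted p = 0.0031). *Fbrs* had 75.4, 73.9 and 74.4 CPM in RepB-/- and 117, 96.2 and 95.6 CPM in WT (log2 -0.46, adjusted p = 0.000829). In these genes, as in *Rybp*, WT replicate 1 was the highest library. Of the 12 PRC1 genes called lower, members included, 11 had their highest value in WT replicate 1, and of the 7 called higher, 6 had their lowest value there, against 68.3% and 67.5% of all genes called. Without that library 17 of the 45 other genes were called as well, now with *Hnrnpk* and *Hcfc1* and without *Dcaf7* and *Cdkn2b*, and *Rybp*, *Auts2*, *Fbrs*, *Fbrsl1*, *Csnk2a2* and *Csnk2b* were among the PRC1 genes called.

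*Phc2*, an oligomerizing subunit of canonical complexes, had 143, 147 and 155 CPM in RepB-/- and 236, 212 and 204 CPM in WT (log2 -0.55, adjusted p = 9.31e-05). *Rbm15*, a partner of the RNA methylation machinery that binds *Xist*, had 19.6, 24.7 and 23.0 CPM in RepB-/- and 54.6, 31.0 and 35.0 CPM in WT (log2 -0.83, adjusted p = 0.00179). *Asxl3*, a cofactor of the deubiquitinase BAP1, had only 4, 5 and 5 counts in RepB-/- and 30, 24 and 17 counts in WT, so its fold (log2 -2.71, adjusted p = 0.000775) rests on few reads.

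Of the 45 genes, 5 are X-linked, with 1 called higher and 1 lower. *Ogt*, whose enzyme modifies the BAP1 partner HCFC1, had 180, 185 and 166 CPM in RepB-/- and 103, 99.2 and 112 CPM in WT MEFs. It was 1.69-fold higher (log2 0.75 ± 0.074 SE, adjusted p = 8.56e-06). *Bcor*, the co-repressor subunit of PCGF1 complexes, had 59.7, 59.0 and 63.8 CPM in RepB-/- and 144, 99.5 and 105 CPM in WT. It was called lower, at 0.525 of the WT level (log2 -0.93 ± 0.12 SE, adjusted p = 5.41e-05). Among the 423 X-linked genes tested, 183 were called higher and 37 lower, with a median log2 fold change of 0.27, so *Bcor* was among the fewer that fell. The other X-linked genes, *Scml2*, *Bcorl1* and *Hcfc1*, were not called.

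**Figure D4:**
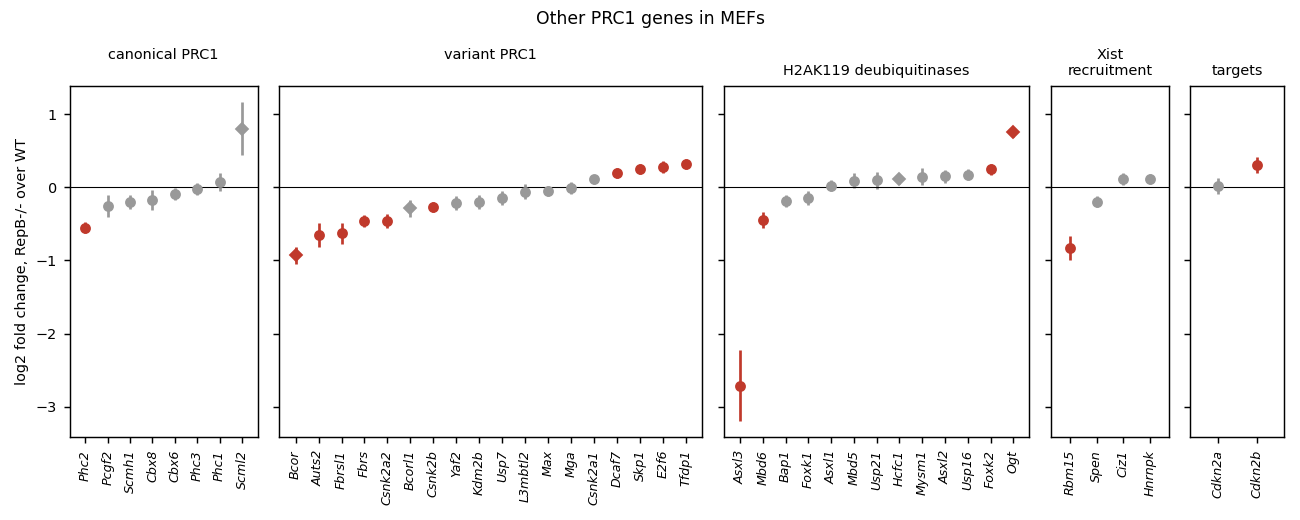
Log2 fold change ± SE, RepB-/- over WT, of 45 further PRC1 genes in MEFs, grouped by role and ordered by size within each group; red marks an adjusted p under 0.05 and diamonds mark X-linked genes. *Bcor* and *Ogt* lie on opposite sides of 0, and *Asxl3* (-2.71) is far below the rest.

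In liver none of the 10 members was called, and neither was any of the 41 further PRC1 genes tested, under every setting tried. The comparison called only 6 of 16080 genes (0.0373%), with 502 at an unadjusted p under 0.05 and 80 called by DESeq2, and its biological coefficient of variation was 51.2% against 9.06% in MEFs. Differences of the size seen for most members in MEFs were not detectable at this spread. The median log2 fold change of the members was -0.03, against 0.01 (0.0122) for all genes. By CPM, libraries of the genotypes did not overlap for *Cbx7*, higher in RepB-/-, and *Bmi1*, lower, which is 2 of 10 members against 8.05% of all genes (3.38% higher and 4.66% lower).

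*Cbx7* showed the largest liver difference among the members. It had 5.65, 8.66 and 9.04 CPM in RepB-/- livers and 1.41, 4.16 and 4.67 CPM in WT livers. Each RepB-/- library was above each WT library and replicate 1 was lowest in both genotypes. The log2 fold change was 1.19 (95% interval 0.02 to 2.36, unadjusted p = 0.0471 and adjusted p = 1.0 in edgeR's quasi-likelihood test). It was 1.38 without RepB-/- replicate 1, 1.10 without RepB-/- replicate 2, where *Ddx3y* was counted, and 0.82 without WT replicate 1. With the replicate number as a block it was 1.33 ± 0.31 (SE, adjusted p = 0.501). With a term for replicate 1 alone it was 1.32 ± 0.28 (SE, adjusted p = 0.32 in edgeR's quasi-likelihood test). The log2 ratio of *Cbx7* to *Cbx2* counts was 0.17, 0.13 and -0.22 in RepB-/- and -2.34, -1.07 and -1.25 in WT. *Apobec3*, on the opposite strand, was at 5.08 CPM in RepB-/- and 2.75 in WT with overlapping libraries (log2 0.88, adjusted p = 1.0). Over 6 erythroid genes, RepB-/- livers had 1090 to 3570 CPM and WT livers 213 to 1310. The part of these values in the *Cbx7* difference was not tested.

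*Bmi1* had 15.5, 15.3 and 18.4 CPM in RepB-/- livers and 22.1, 21.9 and 18.8 CPM in WT livers. The closest libraries of the genotypes, RepB-/- and WT replicate 3, lay under 1 CPM apart. The log2 fold change was -0.35 (95% interval -0.78 to 0.08, adjusted p = 1.0) and it ranged from -0.43 to -0.31 without single libraries. The log2 ratio of *Bmi1* to *Pcgf2*, its canonical paralogue, was 1.74 ± 0.49 (SD, n = 3) in RepB-/- and 2.44 ± 0.15 in WT livers, with no overlap. *Pcgf2* itself had a log2 fold change of 0.37 in liver and was not called. The liver ratio of *Bmi1* to *Pcgf3* overlapped (-0.63 ± 0.34 against -0.20 ± 0.23), as did that of *Bmi1* to *Pcgf2* in MEFs.

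*Rybp* had overlapping libraries in liver. It had 16.05, 10.9 and 11.99 CPM in RepB-/- and 17.8, 9.22 and 8.81 CPM in WT. Replicate 1 was the highest library of both genotypes, and the log2 fold change was 0.12 (95% interval -0.69 to 0.93). *Ring1*, *Cbx2* and *Pcgf3* were lower in both replicate 1 livers than in every other liver, for instance *Pcgf3* with 18.4 and 21.6 CPM in replicate 1 against 25.1 to 33.4 in the others. These are the livers with high fetal liver and cycling markers, and the part of those markers in the levels was not tested. The share of all genes that set replicate 1 apart in this way was not counted, so the order cannot be called particular to these members. *Pcgf3* (log2 0.12), *Pcgf5* (-0.03), *Ring1* (-0.36), *Rnf2* (-0.03), *Cbx2* (-0.20), *Pcgf1* (-0.43) and *Pcgf6* (0.05) all had overlapping libraries in liver by CPM. By FPKM *Ring1* did not overlap, at 6.41 to 7.47 in RepB-/- and 8.63 to 10.4 in WT. In that table *Rybp* overlaps 3 other listed genes, *Gm44044*, *Gm44045* and *Gm18422*.

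**Figure D5:**
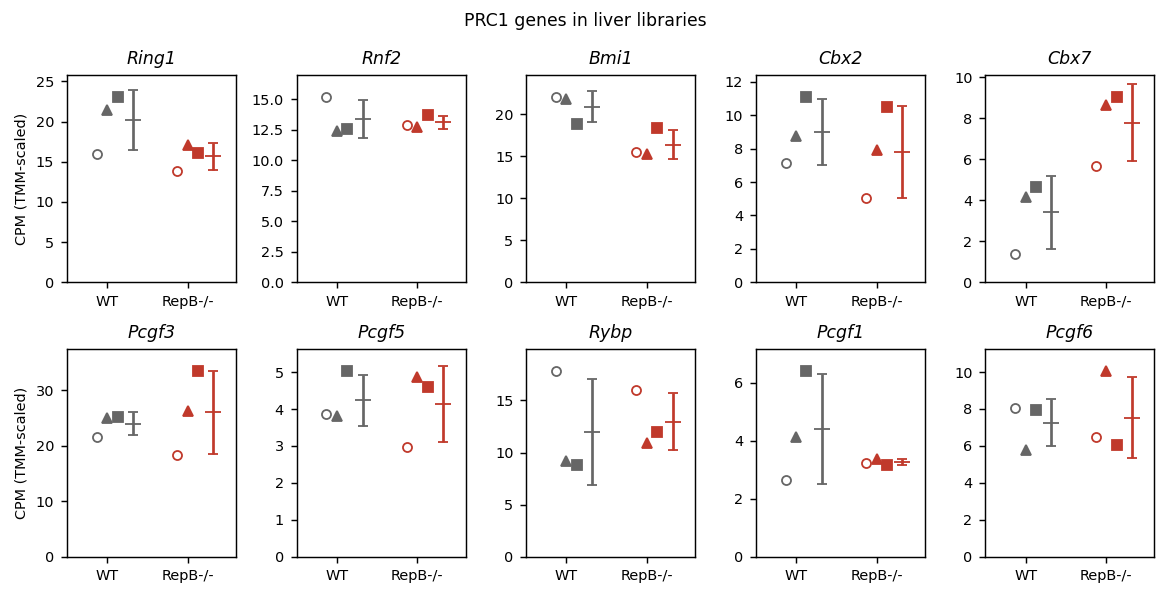
CPM of the 10 PRC1 genes in each liver library, with WT in grey and RepB-/- in red; open circles are replicate 1, triangles replicate 2, squares replicate 3, and bars give the mean ± SD (n = 3). *Cbx7* is higher and *Bmi1* lower in all RepB-/- livers, and both replicate 1 livers are the highest for *Rybp*.

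Per length, *Ring1* was the highest member in liver, at 9.45 ± 0.88 FPKM (SD, n = 3) in WT, and *Cbx7* the lowest at 0.907 ± 0.21. In RepB-/- livers *Cbx7* reached 2.12 ± 0.49 FPKM, and its libraries there overlapped those of *Pcgf5* before it and *Cbx2* after it. In MEFs *Pcgf3* stood first and in WT liver it stood sixth at 3.17 FPKM, overlapping *Pcgf6* and *Rybp*. On CPM scaled over all 12 libraries, *Pcgf3* was at 80.3 to 87.0 in WT MEFs, 79.1 to 80.5 in RepB-/- MEFs, 26.8 to 51.1 in RepB-/- livers and 32.3 to 38.5 in WT livers. On that scale *Rybp* was at 7.13 to 8.47 in RepB-/- MEFs, under all libraries of WT MEFs (14.4 to 25.9), RepB-/- livers (16.9 to 23.4) and WT livers (13.4 to 26.7). The tables were counted with different annotations, so levels set across tissues also carry that difference.

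Whether a member responded differently in the 2 tissues was tested by the interaction of genotype and tissue over the 15208 genes tested in a joint fit. Of all genes 0.388% were called, and 0 of the 10 members. *Rybp* came closest, with a log2 effect 1.36 ± 0.42 (SE) higher in liver than in MEFs (unadjusted p = 0.00861, adjusted p = 0.185 in edgeR's quasi-likelihood test). It was called without WT liver replicate 1 (1.76, adjusted p = 0.0385), the only library whose omission did so. *Bmi1* differed by -0.51 ± 0.18 (adjusted p = 0.229) and *Cbx7* by 1.42 ± 0.6 (adjusted p = 0.314). The other 7 members differed by -0.22 to 0.31 on the log2 scale, none of them called.

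The genes most like the repeat B partners in their pattern across the 12 libraries were found by the root mean square difference of log2 CPM, after removing each gene's mean in each tissue. For *Pcgf3* these were *Ccdc6* (0.0699), *Timm29* (0.0744) and *Sirt2* (0.0745), against a median of 0.32 over 11978 genes. For *Pcgf5* they were *Abca3* (0.0896), *Rad54l2* (0.101) and *Zswim8* (0.103), against a median of 0.329.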

How the data were processed

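RNA-seq libraries of MEFs and liver (n = 3 per genotype) were analysed. The paper's methods name Cutadapt and Hisat2 and stranded libraries, and the submitters' processing notes name Trim Galore 0.4.1, STAR 2.7.0 and HTSeq 0.12.4, without roles. Which of these made each table, and whether reads were counted by strand, is not given in the sources used here. The authors deposited raw read counts for each gene as whole numbers, and FPKM values that they had computed. Coordinates are GRCm39 for MEFs and GRCm38 for liver. The authors' fold changes, p-values and 6 per-library columns (TPM) were not used.

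Counts were fitted in edgeR 4.0.16 (R 4.3.3, limma 3.58.1) per tissue with TMM, filterByExpr and the quasi-likelihood test, at a Benjamini-Hochberg adjusted p of 0.05. The interaction was fitted on genes joined by Ensembl identifier. FPKM served to order genes within a tissue and as a second measure of overlap for *Bmi1*, *Ring1*, *Cbx2* and *Pcgf1*. The share of all genes whose FPKM separated the genotypes was not counted. Ratios used raw counts. Alternatives were DESeq2 1.42.0, edgeR with the size factors of DESeq2, TMM from autosomal genes alone, all genes kept whatever their counts, the replicate block, a replicate 1 term in liver, and leaving out each library. The block without liver replicate 2 was added after the data had been seen. Fits were tested on simulated data, where a pass was required only at a low set spread between libraries. Nothing was required of them at the spread of the liver and joint fits. Intervals are 95% intervals of the fit. In liver, where the biological coefficient of variation was 51.2%, depth limits precision less than the spread between libraries does. In MEFs that coefficient was 9.06%, and members with few counts, such as *Pcgf5* with 101 to 142 per library, are limited by depth as well.

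The members and lists were chosen with earlier results of these data known. Named genes were the 10 members, other PRC1 genes called with no overlap between the genotypes (values for the X-linked ones and 6 others), and the 3 genes most like *Pcgf3* and *Pcgf5*. A gene of these lists is not reported here. *Yaf2*, *Pcgf2*, *Trmt1l* and *Apobec3* are given as paralogues or overlapping genes, and list genes that were not called (*Hnrnpk*, *Cdkn2a*, *Csnk2a1*, *Scml2*, *Bcorl1*, *Hcfc1*) are named to complete their groups, all chosen after their values were seen. The skeletal muscle and keratinocyte markers are named to show what makes up their sums. Deviations of same-numbered libraries from their genotype means correlated at 0.743, 0.414 and 0.391 in liver and at 0.0092, -0.055 and -0.0155 in MEFs. In liver, RepB-/- replicate 2 correlated at 0.489 with WT replicate 3, and RepB-/- replicate 3 at 0.481 with WT replicate 2. The liver numbers thus set replicate 1 apart and do not pair replicates 2 and 3. Figures were drawn with matplotlib 3.10.9.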

Additional observations from a re-analysis of the deposited data

Results flagged for a closer look

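By CPM, *Bmi1* stood on opposite sides of WT in the tissues: every RepB-/- MEF library was above every WT MEF library, and every RepB-/- liver library was below every WT liver library. The order in MEFs depended on the measure. The nearest MEF libraries were at 43.08 and 42.65 CPM, and FPKM overlapped there (10.39 to 11.63 in RepB-/- and 9.497 to 11.05 in WT). The difference of the log2 effects (liver minus MEF) was -0.507, and the interaction test did not call it (adjusted p = 0.229, edgeR's quasi-likelihood test). It lay between -0.61 and -0.48 without single libraries, and between -0.52 and -0.50 under the other settings, with adjusted p from 0.0767 to 0.448 over all of them.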

How the results depend on the processing

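*Rybp* in MEFs was called under all 11 alternatives (log2 -1.40 to -0.93). Of the 2 members called in MEFs, 1 was called with DESeq2 and 1 with no filter on low counts, and 1 to 2 without single libraries: *Rnf2* was lost (adjusted p 0.0675 and 0.0871 in the first 2). With the replicate block 1 was called in MEFs, where *Rnf2* had an adjusted p of 0.0502, although the replicates there share only a number. In liver the block called 8 genes and again 0 members. Genes called in liver went from 6 to 80 (DESeq2), 3 (TMM over autosomal genes), 0 (no filter), 3 (replicate 1 term without RepB-/- replicate 2), 0 (block without replicate 2) and 0 to 4 without single libraries. Interaction calls went from 59 to 689 (DESeq2), 37 (no filter), 192 (replicate block) and 1 to 428 without single libraries; members called there ranged from 0 to 1, and DESeq2 called 1 other PRC1 gene (*Fbrs*). The causes were not tested.

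Reversals were in members that were not called. Without single libraries the log2 difference of *Cbx7* in MEFs ranged from -0.42 to 0.0038. In liver the ranges were -0.074 to 0.0744 for *Rnf2*, -0.47 to 0.0357 for *Cbx2*, -0.10 to 0.32 for *Pcgf3*, -0.17 to 0.16 for *Pcgf5*, -0.0595 to 0.53 for *Rybp* and -0.21 to 0.19 for *Pcgf6*, which was also -0.24 with the replicate 1 term without RepB-/- replicate 2 and -0.35 with the block without replicate 2. In the interaction they were -0.34 to 0.13 for *Cbx2*, -0.0285 to 0.36 for *Pcgf3*, -0.49 to 0.14 for *Pcgf1* and -0.34 to 0.10 for *Pcgf6*. The remaining member differences kept their direction. The medians of all MEF genes under DESeq2 (-0.16) and with no filter (-0.12) include genes with low counts, and DESeq2's size factors on the tested genes gave -0.01 (-0.00751).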
